A study of Caenorhabditis elegans with 2 samples.

Results

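The genes described are 7 members of the basic helix-loop-helix (bHLH) family of Caenorhabditis elegans, cnd-1, ngn-1, lin-32, hlh-2, hlh-3, hlh-14 and lin-22, out of 19973 nuclear protein-coding genes of the annotation. The members were listed by name. For each one, every entry of the deposited peak lists was taken whose summit lay from 10 kb upstream of the gene to 5 kb past its end, a span called the gene window here. The lists come from chromatin immunoprecipitation followed by sequencing (ChIP-seq) of the homeodomain factor CEH-36, carrying a C-terminal GFP-FLAG tag, in strain OP620 (unc-119(tm4063) III; wgIs620). The material was whole embryos of mixed sex at an early stage, taken 2 hours after their synchronization (bleaching to free the eggs). Chromatin was sheared by sonication and precipitated through the GFP tag per the description of the samples, while their antibody field reads ceh-36. The study has 1 group of 2 biological replicates and no second condition, so every embryo carried the same transgene and unc-119 allele. The sources used here give neither the promoter that drives the transgene nor its copy number or the number of independent lines, and whole embryos do not show in which cells a site was occupied.

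Proneural bHLH factors commit ectodermal precursors to a neuronal fate by binding E-box sequences as dimers. In C. elegans cnd-1 is the relative of vertebrate NeuroD, ngn-1 of neurogenin and lin-32 of Drosophila atonal, while hlh-3 and hlh-14 belong to the achaete-scute family and hlh-2 encodes the broadly expressed E protein, related to Drosophila daughterless, with which these factors pair. The product of lin-22 is related to the Hairy and Enhancer of split repressors and restrains neuroblast formation in the lateral epidermis, so it opposes the proneural genes and is not one of them. CEH-36 is an Otx-class homeodomain factor known for its part in the AWC and ASE chemosensory neurons, and homeodomains of that class prefer the core TAATCC.

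The sequences under the summits fell into distinct kinds. Shown first are sites with the homeodomain core, 3 of the 5 optimal core peaks and 2 entries below the threshold, because the core is what an Otx-class protein is known to prefer. Each line gives 121 bp centred on the summit, read 5′ to 3′ on the plus strand of the RefSeq genome sequence of build WBcel235 (ce11), with TAATCC or its reverse complement GGATTA in capitals. The cnd-1 stretch spans chrIII:5248833-5248953, the ngn-1 stretch chrIV:2630444-2630564, the lin-22 stretch chrIV:3014761-3014881 and the hlh-14 stretch chrII:5737589-5737709. The first 3 are peaks of the authors' final list, and the hlh-14 stretch is the strongest entry of that gene, below the threshold of that list. The hlh-3 stretch, chrII:9088920-9089040, is also below it and is shown because the replicates differed there. The other 2 optimal core peaks, both at hlh-2, are described by position and values only.
cnd-1, 4254 bp upstream: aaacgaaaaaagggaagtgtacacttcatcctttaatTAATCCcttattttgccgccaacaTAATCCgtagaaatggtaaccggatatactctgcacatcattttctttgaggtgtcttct
ngn-1, 2233 bp upstream: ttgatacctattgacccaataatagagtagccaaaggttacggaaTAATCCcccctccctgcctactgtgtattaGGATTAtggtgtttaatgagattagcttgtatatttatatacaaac
lin-22, 4917 bp upstream: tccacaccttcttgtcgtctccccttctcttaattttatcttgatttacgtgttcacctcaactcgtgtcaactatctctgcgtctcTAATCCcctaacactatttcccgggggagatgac
hlh-14, 1246 bp past the start: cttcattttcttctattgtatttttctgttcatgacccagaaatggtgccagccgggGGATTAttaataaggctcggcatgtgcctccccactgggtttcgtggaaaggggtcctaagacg
hlh-3, 2372 bp past the start: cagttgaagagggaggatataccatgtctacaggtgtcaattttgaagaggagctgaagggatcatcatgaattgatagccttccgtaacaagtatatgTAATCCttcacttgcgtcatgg

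The cnd-1 stretch holds 2 cores on the same strand, 24 bp apart from start to start, with a TAATTA overlapping the left one. The ngn-1 stretch holds 2 cores on opposite strands that point toward each other, 30 bp apart. The single core of the lin-22 stretch is preceded by a C, which makes it a CTAATCC, and the core of hlh-14 lies across the summit. Only the nearer of the 2 cores at hlh-3, which begin 39 and 82 bp to the right of the summit, falls inside the stretch printed.

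The next 3 stretches are peaks without the core and are shown because their sequence is of another kind. At ngn-1 (chrIV:2623401-2623521) and lin-22 (chrIV:3019230-3019350) the capitals mark the repeat unit of C. elegans telomeres, TTAGGC on one strand and GCCTAA on the other. The lin-32 stretch (chrX:2227134-2227254) has no capitals and runs into the transfer RNA gene described with lin-32.
ngn-1, 4810 bp past the start: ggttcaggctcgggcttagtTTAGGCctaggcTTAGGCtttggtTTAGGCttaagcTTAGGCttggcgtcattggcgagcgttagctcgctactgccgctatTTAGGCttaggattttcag
lin-22, 448 bp upstream: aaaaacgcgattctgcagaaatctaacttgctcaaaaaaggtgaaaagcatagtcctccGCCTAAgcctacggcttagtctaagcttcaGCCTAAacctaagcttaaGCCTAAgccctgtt
lin-32, 2928 bp past the start: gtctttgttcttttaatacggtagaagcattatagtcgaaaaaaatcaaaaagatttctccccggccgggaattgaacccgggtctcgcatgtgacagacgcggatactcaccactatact

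At ngn-1 the repeat units lie in 1 orientation, and at lin-22 the printed units lie in the other one on this strand. Counted within 200 bp of the summit, there were 11 units at ngn-1 and 12 at lin-22. A peak was called telomere-like when it had 3 or more.

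Of the 7 genes, 5 had at least 1 summit of the authors' optimal list in their window, and cnd-1, ngn-1, hlh-2 and lin-22, 4 of the 7, had one with TAATCC within 100 bp of the summit and with neither a telomere-like repeat nor a transfer RNA (tRNA) or small nucleolar RNA (snoRNA) gene beside it. Across all protein-coding genes the same shares were 21.5% and 5.25%. The optimal list is the authors' list thresholded by the irreproducible discovery rate (IDR) of the replicates. It held 1662 peaks, 1636 of them nuclear, and was the strongest part of a list of 30000 entries called on the pooled replicates. In all, 8 optimal peaks lay in the members' windows, 5 with the core, 2 at telomere-like repeats and 1 at a tRNA gene. Of the 7, hlh-3 and hlh-14 had no optimal peak, and ngn-1, hlh-2 and lin-22 had 2 each, as at least that many were found at 4.52% of all genes. The members stand in open stretches of the genome: the space upstream of them to the next protein-coding gene ran from 3414 bp at hlh-3 to 8284 bp at hlh-2, against a median of 937 bp over all genes. Its part in the counts was not tested. Members were chosen with results of these data known and there is 1 group, so no test was made of these counts.

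**Figure D1:**
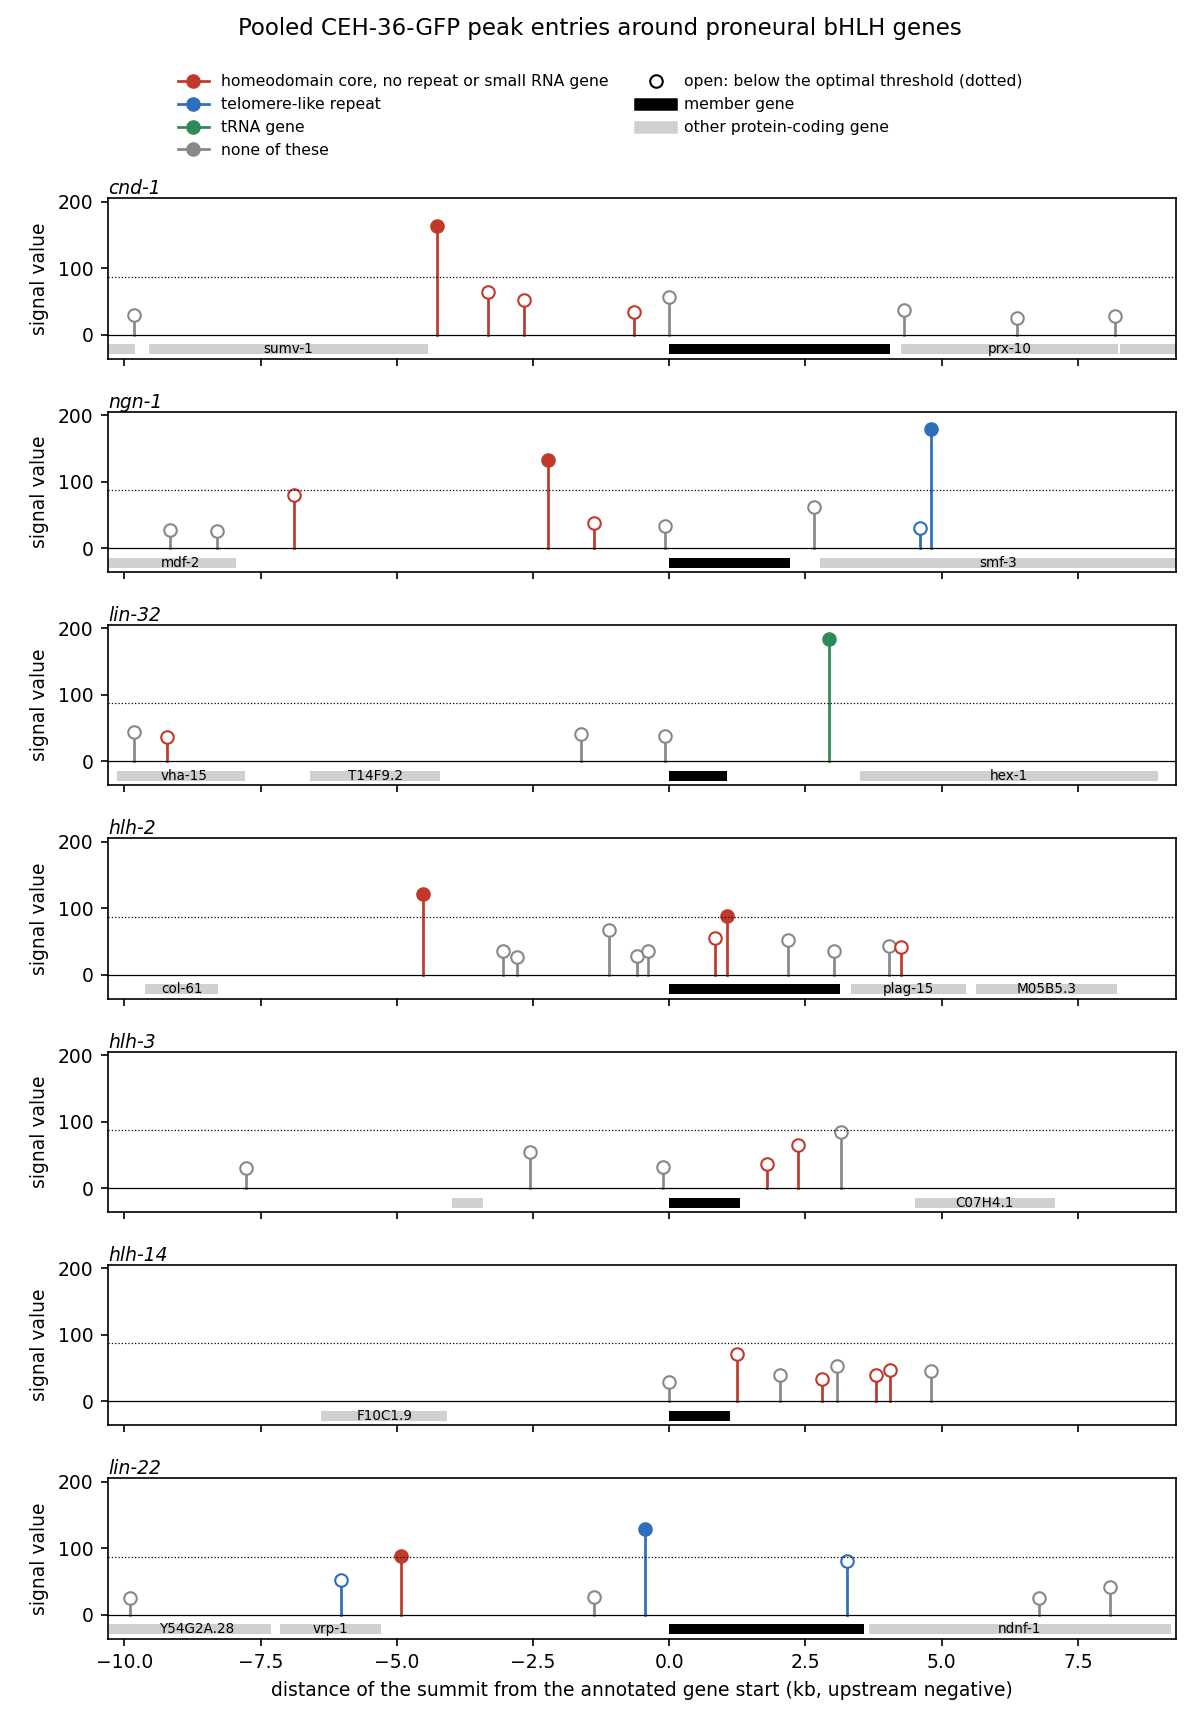
Entries of the pooled list in the window of each gene, by the distance of the summit from the annotated gene start in kb (x axis, upstream negative) and the authors' signal value (y axis), with filled points for optimal peaks and the dotted line at the lowest optimal signal of 87.2. The 8 filled points lie at 5 genes, 5 of them upstream of the start, and the colours separate core peaks, telomere-like repeats and the tRNA gene.

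Signal values are the authors' score of each peak and were used to rank peaks within a list, with rank 1 as the strongest. The scale differs between the pooled list and the replicate lists, so only ranks are set side by side. The optimal list had a median signal of 125.1 between its extremes of 87.2 and 4170.3, and its strongest nuclear peak had 942.5. The members' peaks ran from 88.1 to 184.2, and the best placed of them had rank 424. The lists hold no read counts, so depth is unknown and counting error cannot be given.

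Among the genes that start neuronal programmes, cnd-1 (WBGene00000561, chromosome III, 5240591 to 5244639, minus strand) had 1 optimal peak. Its summit lay 4254 bp upstream of the start at chromosome III, 5248893, in a peak from 5248698 to 5249087 between cnd-1 and sumv-1, and 182 bp from the 3′ end of sumv-1. The signal was 162.9, rank 523 in the optimal and pooled lists, with a q-value of 0.00344. Replicate 1 had an entry of rank 634 and signal 65.6 there, with its summit 11 bp away, and replicate 2 one of rank 497 and signal 93.8, with its summit 6 bp away. Both replicates thus held the peak among their 1662 strongest entries. It was rank 31 among the 373 optimal peaks with the core and no repeat or small RNA gene, which is the best place of any member.

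The rest of the cnd-1 upstream region carried weaker entries with the same core. They lay 3318, 2669 and 648 bp upstream, with pooled signals of 64.8, 53.0 and 34.1 and pooled ranks of 3451, 5967 and 17801. All 3 are below the optimal threshold. The replicates ranked them far apart: the first was rank 6105 in replicate 1 and 2102 in replicate 2, the second 3405 and 17977, and the last 7484 in replicate 1 with no entry in replicate 2. Of the 5 pooled entries in the 4435 bp between the neighbour and cnd-1, 4 had the core. The other one sat 9 bp upstream of the start, without the core, at rank 5080 in the pooled list, 27459 in replicate 1 and 2960 in replicate 2.

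The neurogenin gene ngn-1 (WBGene00003595, chromosome IV, 2626062 to 2628271, minus strand) had 2 optimal peaks of different kinds. The upstream one, with its summit 2233 bp from the start at chromosome IV, 2630504 (peak 2630309 to 2630698), was intergenic and held the opposed pair of cores, with 4 copies of the shorter TAATC and 1 E-box. Its signal was 132.8, rank 732, and the replicates ranked it 766 (signal 59.0) and 840 (signal 71.0), with summits 2 and 3 bp away. The other peak was stronger, with a signal of 178.8 at rank 443, replicate ranks of 468 (signal 77.6) and 434 (signal 100.9). It lay past the far end of ngn-1 in an intron of smf-3, a divalent metal transporter gene, at 2623461 (peak 2623266 to 2623655), at the telomere-like repeat and without the core. Its nearest gene start was that of smf-3, 4592 bp away, so the window rule alone links it to ngn-1.

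A further core entry stood 6886 bp upstream of ngn-1, just outside the optimal list at rank 2024 with a signal of 79.9. Replicate 1 ranked it 1599, inside its 1662 strongest entries, and replicate 2 ranked it 3921. A weaker core entry 1386 bp upstream had rank 13782, with 13142 and 24933 in the replicates. The space between ngn-1 and the spindle checkpoint gene mdf-2 was 7955 bp, and 3 of the 4 pooled entries in it had the core.

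The atonal relative lin-32 (WBGene00003018, chromosome X, 2229055 to 2230122, minus strand), which acts in touch neurons and other sensory lineages, had a single optimal peak and it was not at the homeodomain core. The summit, 2928 bp past the lin-32 start at chromosome X, 2227194 (peak 2226999 to 2227388), lay inside the aspartate tRNA gene T14F9.t1 (WBGene00023139, 2227191 to 2227262), between lin-32 and hex-1. This was the strongest optimal peak of any member, with a signal of 184.2, rank 424, and close ranks of 410 (signal 84.3) and 419 (signal 102.8) in the replicates. Of all nuclear optimal peaks, 16.4% lay at a tRNA or snoRNA gene, against 0.985% of the weaker pooled entries. The 4201 bp between lin-32 and the gene upstream held 2 pooled entries, neither with the core. The only pooled entry of lin-32 with the core was 9214 bp upstream in an intron of vha-15, with 2 cores, at rank 14796. It had rank 10100 in replicate 1 and no entry in replicate 2. Replicate 1 also held an entry with 1 core 8453 bp upstream, at rank 21601.

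The dimer partner hlh-2 (WBGene00001949, chromosome I, 7190788 to 7193920, minus strand) had 2 optimal peaks, both with 1 core. The stronger lay 4513 bp upstream of the start, in the 8284 bp that separate hlh-2 from the collagen gene col-61, at chromosome I, 7198433 (peak 7198238 to 7198627), with a signal of 121.5 and rank 877. The replicates differed on it: replicate 2 ranked it 596 (signal 84.9) and replicate 1 ranked it 2595 (signal 35.4). The weaker lay in an intron of hlh-2 itself, 1068 bp past the start at 7192852 (peak 7192657 to 7193046). It had a signal of 88.1, rank 1620 and a q-value of 0.00525, with ranks of 1937 in replicate 1 and 1482 in replicate 2, whose summit was 103 bp away. Each of these peaks was among the strongest entries of replicate 2 and not of replicate 1.

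The window of hlh-2 held the most pooled entries of any member, 12, of which 11 overlapped an entry in both replicate lists. Neighbouring entries shared some of these matches. Those 4037 and 4258 bp past the start overlapped the same entry in each replicate, of ranks 3058 and 9868. Of the 12 pooled entries, 4 had the core. Another intronic entry with the core lay 847 bp past the start, at pooled rank 5151, and overlapped the same replicate 2 entry as the optimal intronic peak. The 1111 bp upstream entry, without the core, had a signal of 67.4 and ranks of 3117 in the pooled list, 3636 in replicate 1 and 5539 in replicate 2.

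The achaete-scute family genes had no optimal peak. The first of them, hlh-3 (WBGene00001950, chromosome II, 9086608 to 9087908, plus strand), is known for its part in the differentiation of the HSN motor neurons. In its window the strongest of 6 pooled entries lay 3152 bp past the start with a signal of 83.6 and rank 1822, just under the lowest optimal signal. It had no core, and the replicates ranked it 3033 and 1929. The 121 bp around its summit overlapped the annotated non-coding RNA genes C07H4.3 and C07H4.4. The entry 2372 bp past the start, with 2 cores, had a pooled signal of 65.3 and rank 3400. It was rank 1007 in replicate 2, with a signal of 64.4, and had no entry in replicate 1. The 121 bp around this summit overlapped the annotated non-coding RNA gene T24B8.9. The 3414 bp upstream of hlh-3 held 2 pooled entries, neither with the core.

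The window of hlh-14 (WBGene00001958, chromosome II, 5737785 to 5738895, minus strand), which acts in the neuroblasts that give the PVQ, HSN and PHB neurons, had all of its 8 pooled entries at the start or downstream of it. None of the 30000 pooled entries had its summit in the 10 kb upstream, as seen in the map of entries by distance. In the replicate lists that span held 1 entry, in replicate 1, 1956 bp upstream at rank 20546 with a signal of 16.3 and without the core. The strongest lay 1246 bp past the start, beyond the 3′ end of the gene, with a signal of 71.4 and rank 2669. The replicates ranked it 5720 and 2589. All 8 overlapped an entry of both replicate lists, and 4 of them had the core, at pooled ranks of 2669, 7829, 12893 and 17568. These overlaps are not 8 separate matches, because neighbouring entries shared some of them. The entries of ranks 7829 and 12893 overlapped the same entry in each replicate, of ranks 6377 and 12309. A pooled list with a fixed number of entries shows only what ranked high enough to be kept, so sites weaker than its last entries cannot be seen.

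The antagonist lin-22 (WBGene00003008, chromosome IV, 3019738 to 3023304, plus strand) had 2 optimal peaks, both upstream. The one 448 bp from the start, at chromosome IV, 3019290 (peak 3019095 to 3019484), was the only optimal peak within 1500 bp upstream of any member, and it was at a telomere-like repeat without the core. Its signal was 128.3, rank 784. Replicate 2 ranked it 606 (signal 83.9), and 2 entries of replicate 1 overlapped it, of ranks 826 (signal 56.8) and 2538 (signal 35.6), with summits 128 and 72 bp away. The core peak lay 4917 bp upstream at 3014821 (peak 3014626 to 3015015), 381 bp past the 3′ end of vrp-1 and inside the annotated non-coding RNA gene Y54G2A.67 (3014674 to 3014941). The start of vrp-1, 2234 bp away, was nearer to it than that of lin-22. It was a weak peak, with a signal of 88.7, rank 1598 and a q-value of 0.00532. Ranks of 1714 (signal 41.3) and 1893 (signal 47.8) put it outside the 1662 strongest entries of both replicates.

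Another lin-22 entry lay in the 3′ untranslated exon of the gene, 3269 bp past the start, with 1 core and 5 repeat units. Its signal was 80.3 and its rank 1996, just outside the optimal list, with ranks of 3281 and 2343 in the replicates. In all, 3 of the 8 pooled entries in the lin-22 window were at telomere-like repeats. The ngn-1 window held 2 such entries and the other members none.

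**Figure D2:**
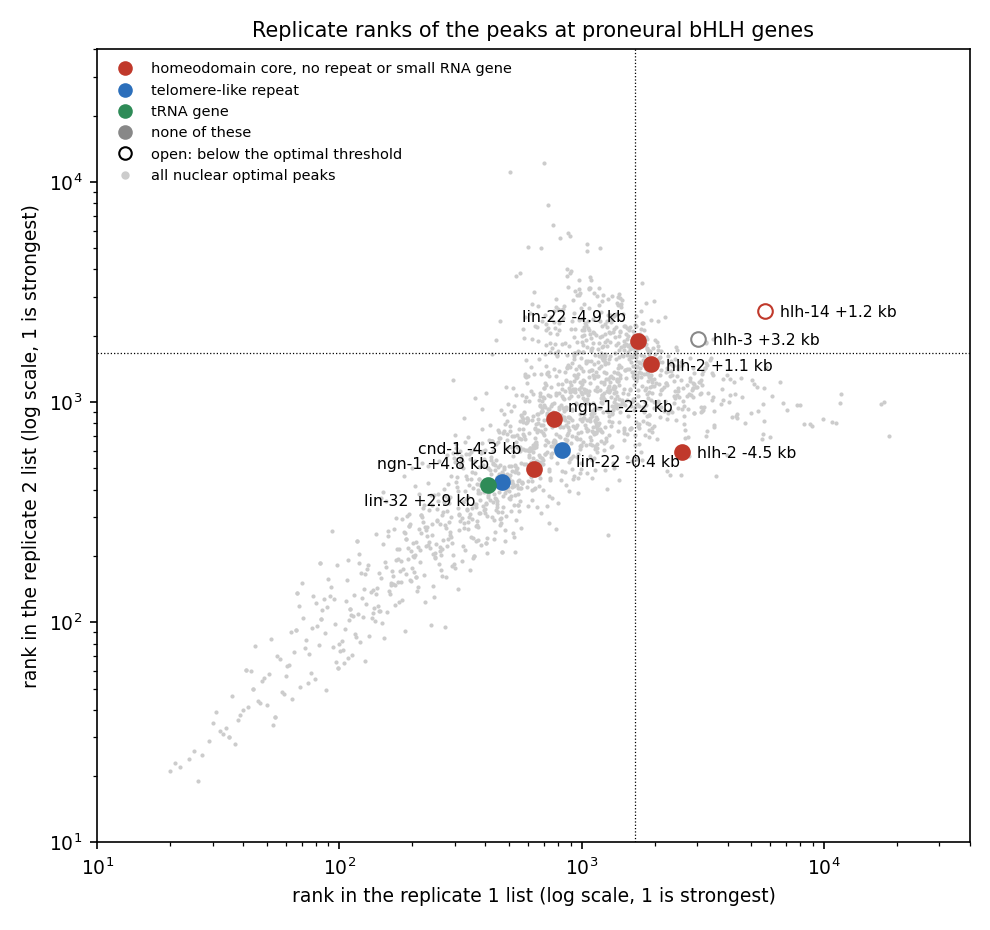
Rank of each peak in the replicate 1 list (x axis) and the replicate 2 list (y axis), both on log scales with 1 as the strongest, for the members' optimal peaks (filled), the strongest entries of hlh-3 and hlh-14 (open) and all nuclear optimal peaks with an entry in both lists (grey). Dotted lines mark rank 1662, and each optimal peak is placed by the best rank among the replicate entries that overlap it. The 5 peaks at the lower left, at cnd-1, ngn-1, lin-32 and lin-22, were among the strongest of both replicates.

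Taking the 8 optimal peaks by replicate, 5 overlapped one of the 1662 strongest entries of each replicate, counting any overlapping entry. With summits also within 100 bp of each other the count was 4, without the telomere-like lin-22 peak, whose nearest replicate 1 entry had rank 2538. Counting any overlapping entry, the share was 68.6% over all nuclear optimal peaks. It was 49.3% over the 373 optimal peaks with the core and no repeat or small RNA gene. Among the 5 core peaks of the members, those of cnd-1 and ngn-1 were strong in both replicates, both hlh-2 peaks in replicate 2 and the lin-22 peak in neither. The telomere-like ngn-1 peak and the tRNA gene peak were strong in both, and the telomere-like lin-22 peak in both only through the farther of its 2 replicate 1 entries. The optimal list was thresholded on these same replicates, so this describes the peaks and is no separate support for them.

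Motifs were searched on both strands within 100 bp of each summit, a window of 201 bp. The search covered TAATCC, its extension CTAATCC, its shorter form TAATC, the palindrome TAATTA that many other homeodomains prefer, and the E-box CANNTG, which bHLH factors bind. Every CTAATCC is also a TAATCC, and every TAATCC also a TAATC. The core TAATCC was in 5 of the 8 member peaks (41.9% of nuclear optimal peaks, 17.9% of pooled entries off the optimal peaks and 6.69% of genome tiles of the same width). CTAATCC was in 1 (25.2%, 4.39% and 1.19%), and TAATTA in 1, at cnd-1 (5.13%, 7.01% and 9.32%). These shares were taken with peaks at repeats and small RNA genes included. All 5 core peaks of the members lay outside both, and such core peaks made up 22.8% of nuclear optimal peaks and 17.3% of pooled entries off them. Pairs of cores, present at cnd-1 and ngn-1, occurred in 262 of the 1636 nuclear optimal peaks, 2.39% of pooled entries off them and 0.425% of tiles. At least 3 TAATC were found at the 2233 bp ngn-1 peak and the 4513 bp hlh-2 peak, with 4 in each, and in 9.96% of nuclear optimal peaks. E-boxes were in 3 of the 8, with 2 at lin-32 and 1 each at the upstream ngn-1 and hlh-2 peaks, against 43.2% of optimal peaks and 53.6% of tiles. TAATC was in 55.3% of optimal peaks, 38.6% of pooled entries off them and 29.7% of tiles. Telomere-like repeats were at 2 of the 8 member peaks and at 34.9% of nuclear optimal peaks.

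In the 5 core peaks of the members, every match began within 50 bp of the summit. The cores began 23 bp to the left and 1 bp to the right of the summit at cnd-1, and 15 bp on either side at ngn-1. They began 31 bp to the right and 42 bp to the left at the hlh-2 peaks, and 27 bp to the right at lin-22. A match of letters is a description of the sequence and does not show that CEH-36 contacts it.

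**Figure D3:**
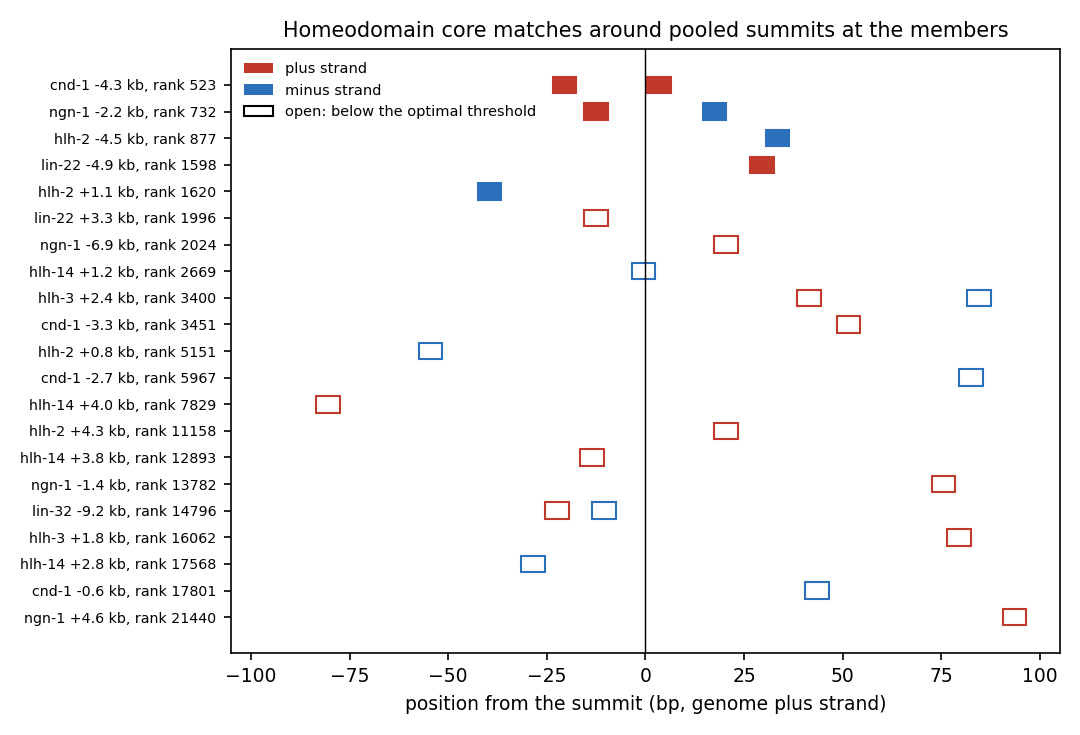
Position of each TAATCC match (x axis, bp from the summit on the plus strand of the genome) for every pooled entry of the members that has one (y axis, ordered by pooled rank), with boxes coloured by strand and open boxes for entries below the optimal threshold. In the 5 optimal peaks all cores lie within 50 bp of the summit, and the pairs at cnd-1 and ngn-1 differ in their orientation.

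Over all 7 genes the pooled list held 57 entries, from 5 at lin-32 to 12 at hlh-2, where the median window of a protein-coding gene held 5. Of the 49 below the optimal threshold, with a median signal of 39.0, 16 had the core. Of the same 49, 32 overlapped an entry of both replicate lists, 13 of 1 and 4 of none. Overlap was not counted over all pooled entries. As 1 replicate entry can overlap several of them, these counts do not measure how well entries repeat. Counting only entries that overlap no optimal peak, 14 of 47 (29.8%) had TAATCC, against 17.9% of all 28017 such nuclear entries. TAATTA was in 9 of the 47 (19.1%) against 7.01%, and telomere-like repeats were at 2 (4.26%) against 2.14%. Entries of 1 gene lie side by side and are not independent, and these shares were not tested.

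The window rule was applied to 34 other bHLH genes and to 28 genes known as partners or targets of proneural factors or as fate genes downstream of them. Of the other bHLH genes, 9 (26.5%) had an optimal summit and 1 (2.94%) had one with the core and no repeat or small RNA gene, against 21.5% and 5.25% over all genes. The gene with the core was hlh-34, whose peak at rank 1502 was rank 11649 in replicate 1 and 1481 in replicate 2. The others with a summit were hlh-11 (rank 756), hlh-17 and hlh-31, which share a telomere-like peak (rank 1493), and hlh-26 and hlh-27, which share a peak (rank 245). Further summits were at hlh-33 (rank 272, telomere-like, and rank 381), the Max-like gene mxl-1 (rank 493) and the sterol regulator sbp-1 (rank 176, telomere-like). Several of those summits lay nearest to the start of another gene, such as rpac-19 for hlh-11 and ins-13 for hlh-26 and hlh-27.

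Of the partner and target genes, 12 (42.9%) had an optimal summit and 8 (28.6%) a core one. The cell death activator egl-1, which hlh-2 and hlh-3 are known to switch on in the sisters of the NSM neurons, had core peaks 1470 bp upstream (rank 473, with 625 and 438 in the replicates) and 5122 bp past its start (rank 1096, with 782 and 2701). Core peaks were also at the homeobox gene unc-30, which specifies GABA neurons (136 bp past the start, rank 590, 2 cores), the zinc finger gene egl-46 (rank 1220, 2 cores), its partner egl-44 (rank 782), the Pax-type gene vab-3 (rank 1154), the Notch receptor gene lin-12 (rank 1285, 2 cores) and the ETS-domain gene ast-1 (rank 1622). The second egl-44 summit (rank 1266), an upstream egl-46 summit (rank 1445), a second ast-1 summit (rank 1537), and those at the Snail-type gene ces-1 (rank 1076) and the Notch effector lag-1 (rank 1325) had no core. The summit at vab-7 (rank 951) was telomere-like, and that in the glp-1 window (rank 423) was at a tRNA gene beside dos-1. The egl-1 summit of rank 1096 lay nearest to the start of F23B12.1. The egl-44 summit of rank 782, in an intron of that gene, lay nearest to the start of F28B12.6.

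The ceh-36 gene, which is in the partner and target list and its counts, had 2 optimal summits, of rank 161 in an exon without the core and of rank 1047 in an intron with it. By the nearest summit the intronic one was rank 408 in replicate 1 and 12727 in replicate 2. The transgene carries ceh-36 sequence, so reads from it and from the native gene cannot be told apart there.

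**Figure D4:**
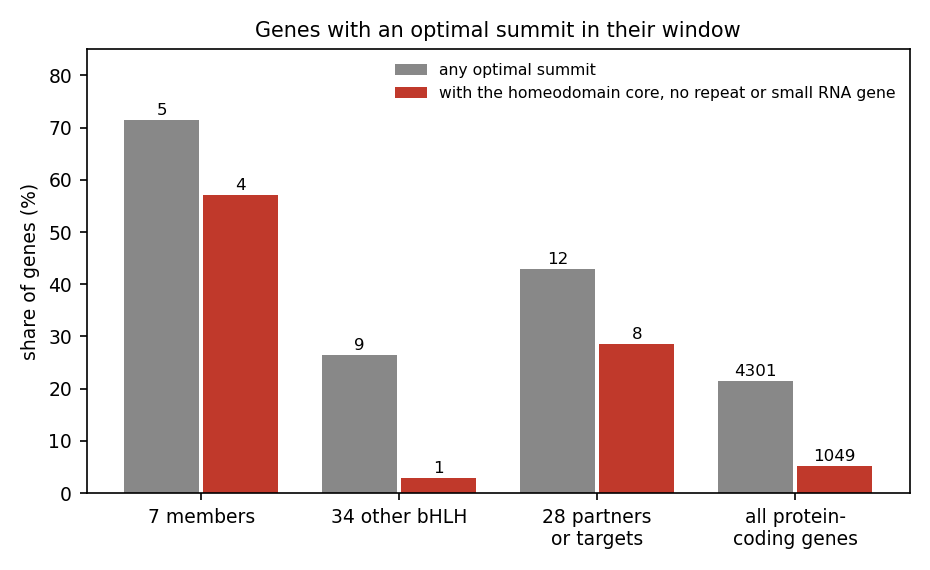
Share of genes (y axis, percent) with an optimal summit in their window, for any summit and for one with the core and no repeat or small RNA gene, in the 7 members, 34 other bHLH genes, 28 partners or targets and all protein-coding genes, with the number of genes above each bar. The members stand at 71.4% and 57.1% and all genes at 21.5% and 5.25%, with no test of the difference.

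To place the members' peaks among others of like strength, the optimal peaks of the same kind (same location class, core and repeat state) next above and below in rank were taken from the pooled list, and named by the nearest gene start. The cnd-1 peak stood between those of egl-27, a chromatin regulator gene (rank 508), and F28F9.2 (rank 532), 15 and 9 ranks away. The upstream ngn-1 peak stood between mtm-3, a myotubularin-type phosphatase gene (rank 727), and egl-18, a GATA factor gene (rank 733). The hlh-2 upstream peak had mvk-1 (rank 862) and F54C1.6 (rank 884) beside it, and the intronic one Y41C4A.9 (rank 1619) and ast-1 (rank 1622). The distal lin-22 peak stood between zyg-8 (rank 1593) and F55C5.10 (rank 1607). The telomere-like peak near ngn-1 had tbx-38 (rank 442) and K07E8.6 (rank 446) as neighbours, and that of lin-22 had C26B2.2 (rank 734) and the homeobox gene ceh-9 (rank 822). The tRNA peak near lin-32 stood between those of C14B9.3 (rank 418) and pqn-71 (rank 430), which were not matched for the presence of a small RNA gene. Likeness here is closeness in rank in 1 list and no more.

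How many members carried an optimal summit depended on the span taken. From 1500 bp upstream to 500 bp past the start, the count fell from 5 members to 1, lin-22, and that peak was the telomere-like one. With the 1662 strongest entries of 1 replicate in place of the optimal list, replicate 2 gave 6 members, hlh-3 added, and replicate 1 gave 4, without hlh-2.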

How the data were processed

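Peak lists from 2 biological replicates of CEH-36-GFP ChIP-seq in early embryos were used on build ce11. Per the labels, they comprise 1 list per replicate and 1 for the pooled replicates, made as input for IDR, and the authors' optimal IDR thresholded list. The ce10 lists were not used here. The aligner, caller and depth were not given in the sources used here. In the deposited lists, column 7 holds the authors' signal value of each entry, column 9 the authors' −log10 of a q-value, and column 10 the deposited summit offset. All values were used only to describe and rank entries within a list. The authors kept 30000 entries in each replicate and pooled list, and the optimal list equals the 1662 strongest pooled entries.

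Summits were placed on the WBcel235 genome (RefSeq sequence) and the Ensembl release 115 annotation with Python 3.11.15, with coordinates counted from 1. A summit within 500 bp of a protein-coding gene start was placed at a gene start, then, in order, in exon, intron or intergenic sequence. A telomere-like repeat had 3 or more copies of TTAGGC or GCCTAA within 200 bp of the summit, and a small RNA gene peak had a tRNA gene within 500 bp or a snoRNA gene within 200 bp. Entries were matched between lists by overlap of 1 bp or more. Ranks given are those of the nearest summit, while a peak counted as among a replicate's strongest entries if any overlapping entry was. The gene windows, motif matches and repeat counts were tested on simulated data. With 1 group of 2 replicates no test was made.

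Named are all 7 members with every optimal peak, or their strongest pooled entry, genes between peak and member, every list gene with an optimal summit, and rank neighbours of the same kind. Other sub-threshold entries and gene neighbours were named after their values were seen. Members and lists were chosen with earlier results of these data known. Alternatives were the 831 strongest optimal peaks, each replicate alone, other windows, motif widths, repeat definitions and matching rules. After seeing the data, leaving out peaks at repeats and small RNA genes was added.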

Additional observations from a re-analysis of the deposited data

How the results depend on the processing

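Of 29 alternatives over 5 counts, 23 stayed within 1.5 times the reported count and 6 moved further. Among the 831 strongest peaks of the optimal list the member peaks fell from 8 to 5 and those with TAATCC from 5 to 2. With summits from 1500 bp upstream to 500 bp past the start, 1 member and 1 peak were counted in place of 5 and 8. Without peaks at telomere-like repeats or tRNA and snoRNA genes, an alternative chosen after seeing the data, 5 peaks at 4 members were left, by its own construction. CTAATCC in place of TAATCC was in 1 peak. Leaving out each replicate in turn gave 4 to 6 members, 6 to 8 peaks and 4 to 5 peaks with TAATCC, and 2 telomere-like peaks each time, with hlh-3 gained without replicate 1 and hlh-2 lost without replicate 2. The peaks with TAATCC were not the same ones. Without replicate 1 they included the hlh-3 entry 2372 bp past the start. Without replicate 2 they included the ngn-1 entry 6886 bp upstream and a lin-22 entry at a telomere-like repeat. Core entries outside repeats then stood only at cnd-1 and ngn-1. The lin-22 core peak 4917 bp upstream was lost both times. The other moves reflect which of the listed peaks met each rule, and no cause beyond that was tested. No paired analysis was possible because there is 1 group and no comparison between conditions. Entries that are weak or have widely different replicate ranks, such as those at hlh-3 and hlh-2, are the least certain, and depth could not be weighed since the lists hold no counts.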
